A study of Mus musculus with 5 samples.

Results

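The genes described here encode the nuclear subunits of mouse oxidative phosphorylation, complexes I to V, with cytochrome c and the complex I assembly factors named Ndufaf. Members were the array probes whose RefSeq accession belongs to a mouse symbol that starts with Nduf, Uqcr, Atp5, Cox4, Cox5, Cox6, Cox7 or Cox8, or that equals Sdha, Sdhb, Sdhc, Sdhd, Cycs or Cyc1. This gave 112 of 35078 gene probes. Of these, 101 were marked as found on at least 2 of the 5 arrays, and they represented 79 of the 15051 genes or unnamed probes tested. Of the protein-coding symbols that the rule covers but the fit lacks, 3 had a probe found on fewer than 2 arrays (Cox6a2, Cox7b2 and Uqcrq). The other 16 lacked a named probe and were not analysed here: Ndufs3, Ndufs5, Ndufs6, Ndufv2, Ndufa11, Ndufa4l2, Ndufb1, Ndufb4b, Ndufb4c, Ndufb6, Ndufb10, Ndufaf2, Ndufaf6, Ndufaf8, Sdha and Cox8c. The subunits encoded by mitochondrial DNA lie outside the rule.

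Tumour-free colon was taken on day 56 from mice of a C57Bl6 background that were 10 weeks old at the start. All had received 7.4 mg/kg AOM (azoxymethane, a colon carcinogen) on day 0 and then 2 cycles of DSS (dextran sulfate sodium, which injures the colon lining), of 7 and 5 days. The villin-TLR4 group held 2 samples, 1 female and 1 male, at 1.5% DSS. The WT littermate group held 3 female samples at 3% DSS, so genotype and DSS concentration cannot be told apart. Villin is a gene of the intestinal epithelium whose promoter is widely used to drive transgenes there, and TLR4 is the receptor for bacterial lipopolysaccharide. The labels do not describe the construct, and the RNA came from whole tissue, in which fewer cells of a type and less RNA per cell cannot be told apart. Tlr4 itself differed by 0.01 ± 0.36 (SE) on the log2 scale, and whether its probe reads the transgene was not given in the sources used here.

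Oxidative phosphorylation takes electrons from NADH at complex I and from succinate at complex II, passes them through complex III and cytochrome c to oxygen at complex IV, and uses the resulting proton gradient to make ATP at complex V. Each large complex has a catalytic part inherited from bacteria and a shell of accessory subunits gained later. Differentiated colonocytes are known to draw much of their ATP from this pathway by oxidising butyrate, a product of gut bacteria.

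Values are log2 probe intensities after background correction and quantile normalisation, and a difference of 1 on this scale is a 2-fold difference in intensity. Differences are villin-TLR4 minus WT littermate, with the standard error of the limma fit. They compare a probe with itself across arrays, never one probe with another. The labels number the WT littermate samples without tying each to a separate mouse, so a p-value reflects no more than the spread between samples, which may be technical. Since 1 villin-TLR4 sample is female and 1 male, those are separate mice.

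WT littermate replicate 1 stood apart from the other arrays. On it 13352 gene probes were found, against 16380 to 19509 on the others, and 1240 spots were marked bad, against at most 4. Its correlation with the other arrays was at most 0.895, while the other 4 reached at least 0.966 with their closest array. Median signal over background of the kept member probes was 4450 there and 4540 to 8260 elsewhere, and the few dim members, such as Ndufs1 and Cox4i2, are given with their own values. The neutrophil list (S100a8, S100a9, Retnlg, Csf3r and Mmp9 of its 6 genes were kept) had a summed intensity of 37300 on this array and 757 to 2090 on the others. The smooth muscle list (6 of 6 kept) summed to 16700 there, to 49700 and 68800 in villin-TLR4, and to at most 70900 in the other WT littermates. All 8 colonocyte markers were found, and their sum was 51600 there, 79900 and 101000 in villin-TLR4, and at most 118000 in the other WT littermates. The exocrine pancreas list (5 of 6 kept) ran from 608 to 697 in villin-TLR4 and from 1530 to 49700 in WT littermates, and the small intestinal list (4 of 6) from 708 to 847 and from 3550 to 9000. Myh1, Myh2, Myh4, Tnnt3 and Mb of the 7 striated muscle markers were not kept, nor were Ucp1, Plin1 and Cidea of the 5 adipocyte markers. The part of these tissue differences in the results that follow was not tested. Medians of the member groups are therefore given with and without this array, while counts without overlap are over all 5 arrays.

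No member passed an adjusted p of 0.05 in limma, where 0 of 15051 genes did (0% called). The smallest adjusted p was 0.87 among the members and 0.77 among all genes. Over 19 alternatives with a test the smallest member value ran from 0.23 to 1. Of the 79 members, 21 lay above 0 and 58 (73.4%) below, with a median of -0.17. Over all genes 49.1% lay below 0, with a median of 0.01. The members were much brighter, with a median log2 intensity of 12.85 against 8.53 for all genes. The part of brightness in this contrast was not tested. Without WT littermate replicate 1 the members split 34 above and 45 below, and their median of -0.02 equalled that of all genes. Scaling moved the split as well, to 9 above and 70 below with 75th percentile scaling and to 14 and 65 with cyclic loess. At an unadjusted p under 0.05 in limma, which 4.85% of all genes had in either direction, 2 members were lower (Atp5j and Cox6b2, 2.53%, against 2.15% of all genes) and 0 were higher (against 2.7%). Without WT littermate replicate 1, 3 were lower (Atp5a1, Atp5j and Cox6b2), where 5.58% of all genes were lower, 5.31% higher and 10.9% either. The genotypes did not overlap for 12 members on the lower side (15.8% of the 76 measured on all arrays, against 12.9% of all genes) and for 5 on the higher side (6.58%, against 12.6%).

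**Figure D1:**
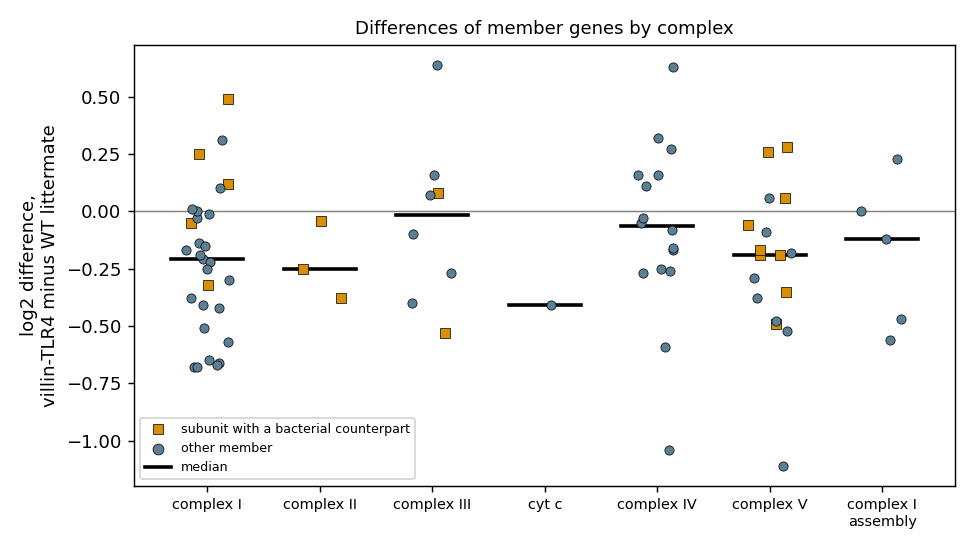
Each point is 1 member gene, placed by complex on the x axis, with its log2 difference (villin-TLR4 minus WT littermate) on the y axis; squares are subunits with a bacterial counterpart and bars are medians. The medians run from -0.25 (complex II) to -0.01 (complex III) among the complexes, and single genes from -1.11 (Atp5j) to 0.64 (Uqcr10).

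Promoter sequence is shown for 4 members that lay at the ends of this range or whose genotypes did not overlap, since members of the pathway are known targets of the factors NRF1, GABP (an ETS factor) and YY1. Windows of 250 bases before to 50 after the gene start, from RefSeq on GRCm38.p6, matched 66 of the 79 members. For a member with several windows, such as Atp5j, the one with the most matches is shown. The letters searched on both strands were GCGCA, any base and GCGC in a row for NRF1, CCGGAAG for ETS and AAGATGGC for YY1, and capitals mark each match, as written or as its reverse complement.
Atp5h (chr11:115419870-115420169, minus strand): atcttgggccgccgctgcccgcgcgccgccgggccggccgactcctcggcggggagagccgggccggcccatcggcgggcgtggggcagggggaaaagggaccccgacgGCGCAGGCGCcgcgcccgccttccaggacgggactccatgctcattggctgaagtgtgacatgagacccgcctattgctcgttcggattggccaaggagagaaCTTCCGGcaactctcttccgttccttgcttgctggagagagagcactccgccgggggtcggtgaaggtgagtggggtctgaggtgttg
Atp5j (chr16:84834927-84835226, minus strand): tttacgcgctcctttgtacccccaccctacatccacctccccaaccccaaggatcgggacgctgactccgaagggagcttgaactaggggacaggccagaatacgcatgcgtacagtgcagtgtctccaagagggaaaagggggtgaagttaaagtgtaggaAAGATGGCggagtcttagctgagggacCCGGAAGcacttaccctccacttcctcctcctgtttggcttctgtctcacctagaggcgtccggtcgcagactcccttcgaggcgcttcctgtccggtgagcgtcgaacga
Ndufb4 (chr16:37654319-37654618, minus strand): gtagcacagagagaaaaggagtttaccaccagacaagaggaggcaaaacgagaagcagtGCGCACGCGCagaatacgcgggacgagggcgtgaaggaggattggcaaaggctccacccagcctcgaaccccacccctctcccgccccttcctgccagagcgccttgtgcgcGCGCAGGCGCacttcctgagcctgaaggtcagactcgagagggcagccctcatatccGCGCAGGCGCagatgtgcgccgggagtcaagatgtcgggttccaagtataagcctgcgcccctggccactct
Ndufs8 (chr19:3912725-3913024, minus strand): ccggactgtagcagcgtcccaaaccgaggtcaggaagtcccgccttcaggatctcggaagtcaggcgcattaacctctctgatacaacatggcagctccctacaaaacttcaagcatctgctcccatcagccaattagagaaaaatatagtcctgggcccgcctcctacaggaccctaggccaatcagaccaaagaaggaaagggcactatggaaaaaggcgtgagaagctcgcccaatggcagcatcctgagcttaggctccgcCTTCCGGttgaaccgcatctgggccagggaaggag
The Atp5h window holds 1 NRF1 and 1 ETS match, the Atp5j window 1 ETS and 1 YY1 match, the Ndufb4 window 3 NRF1 matches, and the Ndufs8 window 1 ETS match. Each window shown holds a match, which is not true of all members without overlap. Of the others that matched a window, Uqcr10, Cox6b2, Ndufb2, Ndufb5, Ndufc2, Ndufa1, Ndufa10 and Ndufv1 hold none of the motifs. Ndufa9, Atp5c1 and Atp5md hold a match. A match describes the letters and does not show binding.

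Each gene was counted once, with a match in any of its windows. Of the 66 members with a window, 15 (22.7%) held the NRF1 letters, against 7.17% of the 17492 protein-coding genes with a window. The ETS letters were in 16 (24.2%, against 12.9%) and the YY1 letters in 9 (13.6%, against 3.57%). At least 1 of the 3 was in 35 members (53%), against 21% of all. Median GC content, from the first window of each gene, was 57.8% in the members and 56.3% in all genes. By complex, any of the 3 was in 12 of 15 complex V members (80%), in 12 of 25 for complex I (48%) and in 3 of 13 for complex IV (23.1%). All 9 members with the YY1 letters lay in complex I (6) and complex V (3).

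Complex I oxidises NADH and is the largest of the 5. Its 29 measured members split 6 above and 23 below 0, with a median of -0.21. Without WT littermate replicate 1 the median was -0.02, with 14 above and 15 below. None had an unadjusted p under 0.05. The genotypes did not overlap for 7 members on the lower side (24.1%, against 12.9% of all genes) and 3 on the higher side (10.3%, against 12.6%).

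Of the 5 measured catalytic subunits of complex I with a bacterial counterpart, 3 lay above 0 (median 0.12). With WT littermate replicate 1 left out, 4 lay above 0 (median 0.09). Ndufs8, which carries iron-sulfur clusters of the electron path, read 12.74 and 12.93 in villin-TLR4 and 11.85, 12.60 and 12.59 in WT littermates. Both villin-TLR4 samples lay above all 3 WT littermates, and WT littermate replicate 1 was the lowest of the 5. The difference was 0.49 ± 0.31 (limma adjusted p = 0.87). Ndufv1, which binds NADH and the flavin cofactor, read 13.41 and 13.38 against 12.84, 13.24 and 13.37, a difference of 0.25 ± 0.26 (adjusted p = 0.88). The groups did not overlap, but the third WT littermate lay only just below the villin-TLR4 pair. Ndufs1, the largest iron-sulfur subunit, read 6.59 and 6.94 against 6.81, 6.98 and 7.46, with overlap and a difference of -0.32 ± 0.29. Ndufs7, which carries the last iron-sulfur cluster before the quinone, differed by -0.05 ± 0.24.

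The accessory subunits of complex I lay below 0 for 21 of 24, with a median of -0.24. Without WT littermate replicate 1 they split 10 above and 14 below with a median of -0.04. Within the pair of arrays that shared a scan day 15 of 24 lay above 0, and the median was 0.14 both for these and for the 5 catalytic subunits. All 8 measured Ndufb genes, subunits of the membrane arm, were below 0 (median -0.49), and 7 of 8 were without WT littermate replicate 1 (median -0.24). Ndufb2 read 11.13 and 11.13 in villin-TLR4 and 12.60, 11.34 and 11.48 in WT littermates. The groups did not overlap, and the gap was widest to WT littermate replicate 1. The difference was -0.68 ± 0.41, and -0.22 against the WT littermate scanned on the same day. Ndufb4 read 11.41 and 11.71 against 12.72, 12.07 and 11.87, a difference of -0.66 ± 0.32 (adjusted p = 0.87). Ndufb5 read 11.17 and 10.94 against 12.33, 11.28 and 11.59, a difference of -0.68 ± 0.36. In both genes every WT littermate exceeded both villin-TLR4 samples. Ndufc2 (-0.65 ± 0.33), Ndufb9 (-0.57 ± 0.32), Ndufa1 (-0.51 ± 0.29) and Ndufa9 (-0.15 ± 0.22) were the other 4 without overlap on the lower side.

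Ndufa10, an accessory subunit of the membrane arm, went the other way. It read 12.83 and 13.01 in villin-TLR4 and 12.21, 12.81 and 12.81 in WT littermates, a difference of 0.31 ± 0.28. The villin-TLR4 samples were higher, but replicate 1 of that group only just exceeded WT littermate replicates 2 and 3. The rest of the complex I accessory members ran from -0.67 (Ndufc1) to 0.10 (Ndufa7), all with overlap.

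**Figure D2:**
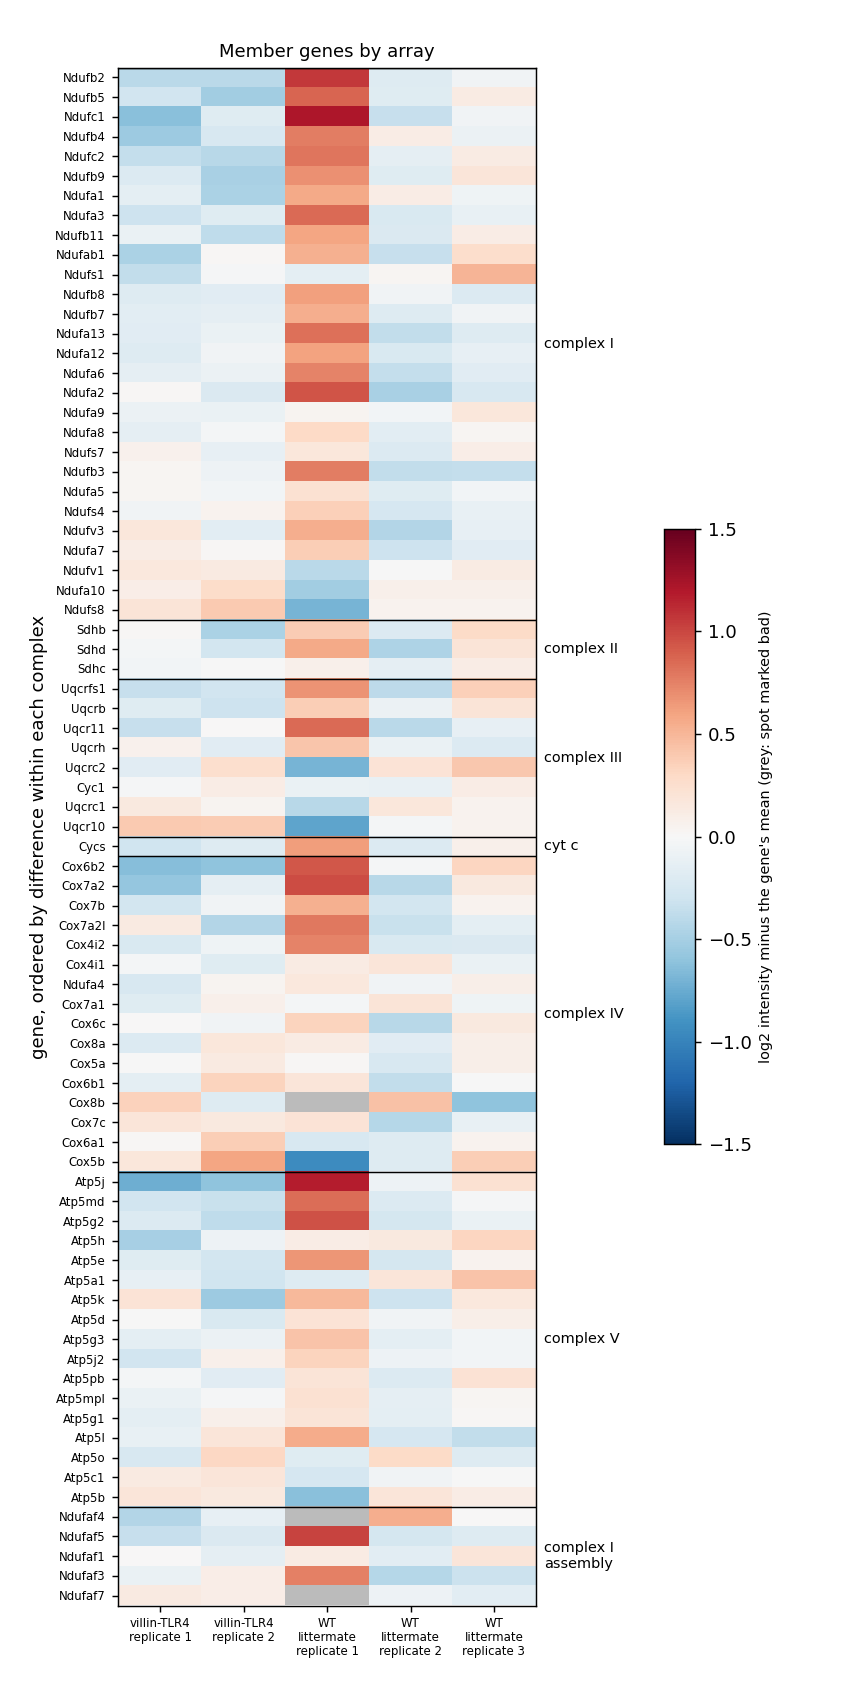
Each row is 1 member gene, ordered by difference within its complex, each column is 1 array, and colour is log2 intensity minus that gene's mean over the arrays (grey where the spot was marked bad). WT littermate replicate 1 is the highest array for 51 of the 76 members measured on all 5, and most of the strong red lies in its column.

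The position of WT littermate replicate 1 differed between groups of subunits. It was the highest array for 51 of 76 members (67.1%, against 32.2% of all genes) and the lowest for 10 (13.2%, against 39%). Among complex I accessory subunits it was highest for 22 of 24, and their median stood 0.61 above the gene's own mean there. Among the 5 complex I subunits with a bacterial counterpart it was highest for 1, with a median of -0.15. In complex V it was highest for 7 of 8 accessory subunits (median 0.52) and 4 of 9 with a bacterial counterpart (median 0.19). This grouping was chosen after the values were seen and was given no test. The 10 members that read lowest on this array were Ndufs8, Ndufa10, Ndufv1, Uqcr10, Uqcrc1, Uqcrc2, Cox5b, Cox6a1, Atp5b and Atp5c1. This position was not particular to the members. The other assembly factors listed below were highest on the same array for 18 of 27 genes and lowest for 4. The tricarboxylic acid cycle enzymes listed below were lowest on it for 14 of 16 genes.

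**Figure D3:**
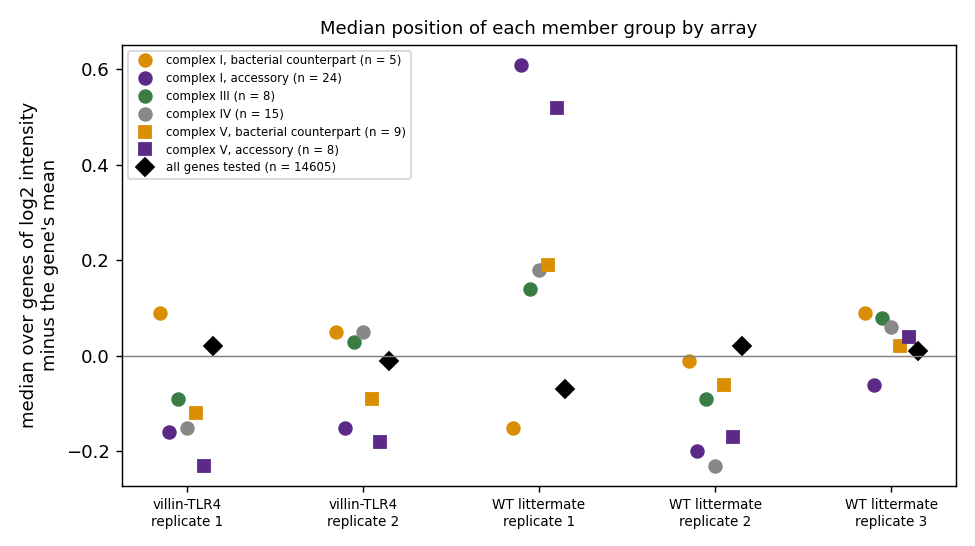
For each array (x axis) the points give the median over genes of log2 intensity minus the gene's mean (y axis), by group of subunits and for all genes. On WT littermate replicate 1 the accessory subunits stand at 0.61 (complex I) and 0.52 (complex V), while complex I subunits with a bacterial counterpart stand at -0.15 and all genes at -0.07.

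Complex II, succinate dehydrogenase, also belongs to the tricarboxylic acid cycle. Its 3 measured members lay below 0 with a median of -0.25, or -0.02 without WT littermate replicate 1. Sdhb, the iron-sulfur subunit, read 12.55 and 12.06 in villin-TLR4 and 12.91, 12.33 and 12.82 in WT littermates, a difference of -0.38 ± 0.30 with overlap. The membrane anchors Sdhc and Sdhd differed by -0.04 ± 0.23 and -0.25 ± 0.35. A second probe of Sdhc, found on 5 arrays, gave -0.4, with both villin-TLR4 samples below every WT littermate.

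Complex III passes electrons from ubiquinol to cytochrome c. Its 8 members split evenly, 4 above and 4 below, with a median of -0.01, or 0.02 without WT littermate replicate 1. Uqcr10, a small subunit, read 14.81 and 14.79 in villin-TLR4 and 13.62, 14.38 and 14.46 in WT littermates. The villin-TLR4 samples lay above all WT littermates, by a margin wider than the spread of the pair, and the difference was 0.64 ± 0.32 (adjusted p = 0.87). Against the WT littermate scanned on the same day it was 0.40. Uqcrb, another small subunit, read 12.98 and 12.85 against 13.53, 13.07 and 13.35, without overlap on the lower side, a difference of -0.40 ± 0.25. Uqcrfs1, the Rieske iron-sulfur protein, differed by -0.53 ± 0.36, and cytochrome c1 (Cyc1) by 0.08 ± 0.23. The core proteins Uqcrc1 and Uqcrc2 differed by 0.16 ± 0.27 and 0.07 ± 0.38, with WT littermate replicate 1 the lowest array for each. Cycs, cytochrome c, read 11.76 and 11.87 against 12.69, 11.86 and 12.14, a difference of -0.41 ± 0.31 that was -0.18 without WT littermate replicate 1.

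Complex IV reduces oxygen, and several of its subunits exist as isoforms that differ between tissues. Its 16 members split 6 above and 10 below 0, with a median of -0.06, or 0.08 without WT littermate replicate 1. Cox6b2, the isoform known from testis, read 9.15 and 9.19 in villin-TLR4 and 10.72, 9.78 and 10.12 in WT littermates. Every WT littermate lay well above both villin-TLR4 samples. The difference was -1.04 ± 0.33 (adjusted p = 0.87). It was -0.59 against the WT littermate scanned on the same day. A second probe of Cox6b2 was found on 0 arrays, so these values rest on 1 probe. The common counterpart Cox6b1 differed by 0.16 ± 0.29 with overlap. A second probe of Cox6b1, found on 5 arrays, gave 0.35, with both villin-TLR4 samples above every WT littermate.

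Cox5b read 14.71 and 15.13 in villin-TLR4 and 13.60, 14.35 and 14.91 in WT littermates, a difference of 0.63 ± 0.41 with overlap. A second well-detected probe of the gene gave -0.09, so the probes disagreed. Cox4i1, the common isoform of subunit 4, differed by -0.17 ± 0.23. Cox4i2, its isoform known from lung, was found on all 3 WT littermate arrays and on neither villin-TLR4 array. The WT littermate mean was 1.19-fold higher (7.02 against 6.77, limma adjusted p = 0.89), with its own signal in villin-TLR4 taken as the level there. That rests on WT littermate replicate 1, which read 7.67 while the other 2 read 6.69 and 6.71, and the difference without it was 0.07 in the opposite direction. The common isoforms Cox6a1, Cox7a2 and Cox8a differed by 0.32 ± 0.25, -0.59 ± 0.43 and -0.03 ± 0.25. Of the heart and muscle isoforms, Cox7a1 differed by -0.08 ± 0.23. Cox8b differed by 0.16 ± 0.44 in a fit that dropped WT littermate replicate 1, where its spot was marked bad. Cox5a (0.11 ± 0.24), Cox7a2l, which joins complexes into supercomplexes (-0.26 ± 0.41), and Ndufa4, counted here with complex IV (-0.16 ± 0.23), also overlapped.

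Complex V is the ATP synthase. Its 17 members split 4 above and 13 below 0, with a median of -0.19, and without WT littermate replicate 1 the counts were again 4 and 13, with a median of -0.10. Not all members kept their side, since Atp5o went from 0.06 to -0.02 and Atp5g1 from -0.06 to 0.03. Atp5j, coupling factor 6 of the stalk, read 9.46 and 9.59 in villin-TLR4 and 11.36, 10.11 and 10.42 in WT littermates. Every WT littermate lay above both villin-TLR4 samples, WT littermate replicate 1 by the most. The difference was -1.11 ± 0.40 (adjusted p = 0.87), the largest among the 79 members over all 5 arrays. Without WT littermate replicate 1 it was -0.74, smaller than that of Cox6b2 (-0.78). It was -0.53 against the WT littermate scanned on the same day.

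Atp5h, subunit d of the stalk, read 13.47 and 13.89 in villin-TLR4 and 14.08, 14.12 and 14.29 in WT littermates, so the gap did not rest on WT littermate replicate 1. The difference was -0.48 ± 0.25 (adjusted p = 0.87). Atp5md, a small membrane subunit, read 12.56 and 12.51 against 13.68, 12.64 and 12.83, a difference of -0.52 ± 0.36. Its WT littermates 2 and 3 lay near the villin-TLR4 samples. Among the parts of the F1 motor, Atp5a1 (alpha) differed by -0.35 ± 0.27 with overlap. Atp5b (beta, the catalytic subunit) differed by 0.28 ± 0.32 and was saturated on 3 arrays, 1 in villin-TLR4 and 2 in WT littermates. Atp5c1 (gamma) read 14.46 and 14.51 against 14.07, 14.27 and 14.32, a difference of 0.26 ± 0.23 without overlap. A dim second probe of that gene gave -0.23. Atp5o, of the stalk, differed by 0.06 ± 0.29. The 3 genes of the membrane ring, Atp5g1, Atp5g2 and Atp5g3, differed by -0.06 ± 0.24, -0.49 ± 0.40 and -0.19 ± 0.27, all with overlap.

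**Figure D4:**
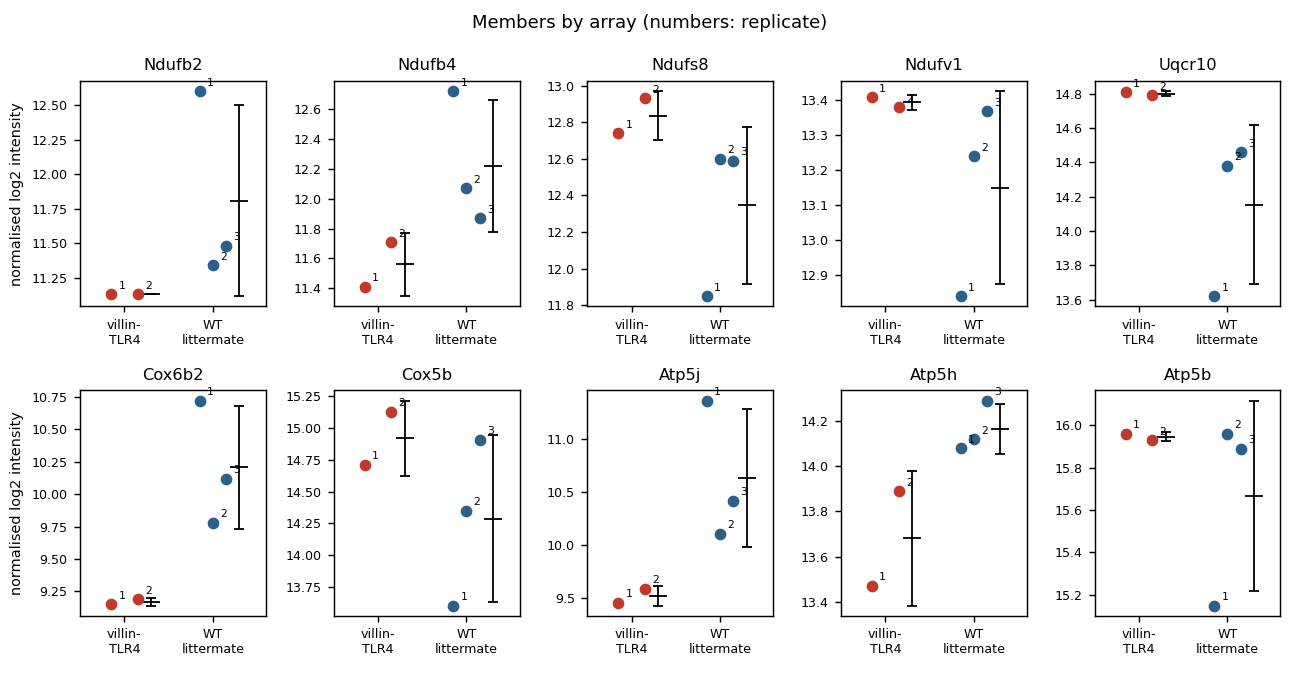
Each panel gives the normalised log2 intensity (y axis, own scale) of 1 member on the 2 villin-TLR4 (red) and 3 WT littermate (blue) arrays, numbered by replicate, with the mean ± SD of each group. WT littermate replicate 1 is highest for Ndufb2, Ndufb4, Cox6b2 and Atp5j and lowest for Ndufs8, Ndufv1, Uqcr10, Cox5b and Atp5b.

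The 5 measured Ndufaf assembly factors, which help to build complex I, split 1 above and 4 below 0 with a median of -0.12, and 2 above and 3 below without WT littermate replicate 1 (median -0.06). Ndufaf4 (-0.56 ± 0.32) and Ndufaf7 (0.23 ± 0.26) were fitted without WT littermate replicate 1, where their spots were marked bad. Ndufaf1, Ndufaf3 and Ndufaf5 differed by -0.12 ± 0.24, 0.00 ± 0.40 and -0.47 ± 0.43. Ndufaf3 stood at 0.37 and Ndufaf5 at -0.06 without WT littermate replicate 1. A second probe of Ndufaf5, found on 5 arrays, read 8.41 and 8.51 against 9.81, 8.87 and 9.1, a difference of -0.8. On that probe both villin-TLR4 samples lay below every WT littermate, so the gap there did not rest on WT littermate replicate 1 alone. A second probe of Ndufaf3, also found on 5 arrays, gave -0.11.

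Arrays were scanned on 3 days, and 1 villin-TLR4 sample (the male) shared its day with 1 WT littermate (a female). Within that pair 50 of 79 members lay above 0 (63.3%, against 45.8% of all genes) and the member median was 0.11, against -0.04 for all genes. The medians of complexes I to V there were 0.14, 0.13, 0.09, 0.25 and -0.02. These are opposite in sign to the pooled values in complexes I, II, III and IV, and the pair has no replicate. Cox6b2 (-0.59), Atp5j (-0.53), Ndufb4 (-0.36) and Ndufb5 (-0.33) lay below 0 in it, and Uqcr10 (0.40) and Ndufs8 (0.33) above.

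Across the 20 alternatives, 22 members lay below 0 in the reported fit and in every alternative that gave a value, and 6 lay above 0 throughout. Those below were Ndufs1, Ndufa1, Ndufa9, Ndufb2, Ndufb4, Ndufb5, Ndufb8, Ndufb9, Ndufb11, Ndufc2, Ndufaf4, Sdhb, Uqcrb, Cox4i1, Cox6b2, Atp5a1, Atp5d, Atp5e, Atp5g2, Atp5h, Atp5j and Atp5md. Those above were Ndufs8, Ndufv1, Ndufa10, Ndufaf7, Uqcr10 and Cox5b. The alternatives reuse the same 5 arrays and some give the same estimates, so this is a description of the sign and no test. Sex as a covariate matched leaving out villin-TLR4 replicate 2, and the replicate block matched leaving out WT littermate replicate 3. Scan day as a block matched the pair that shared a day. The second probe of Cox5b, which gave -0.09, entered only through a mean of probes.

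**Figure D5:**
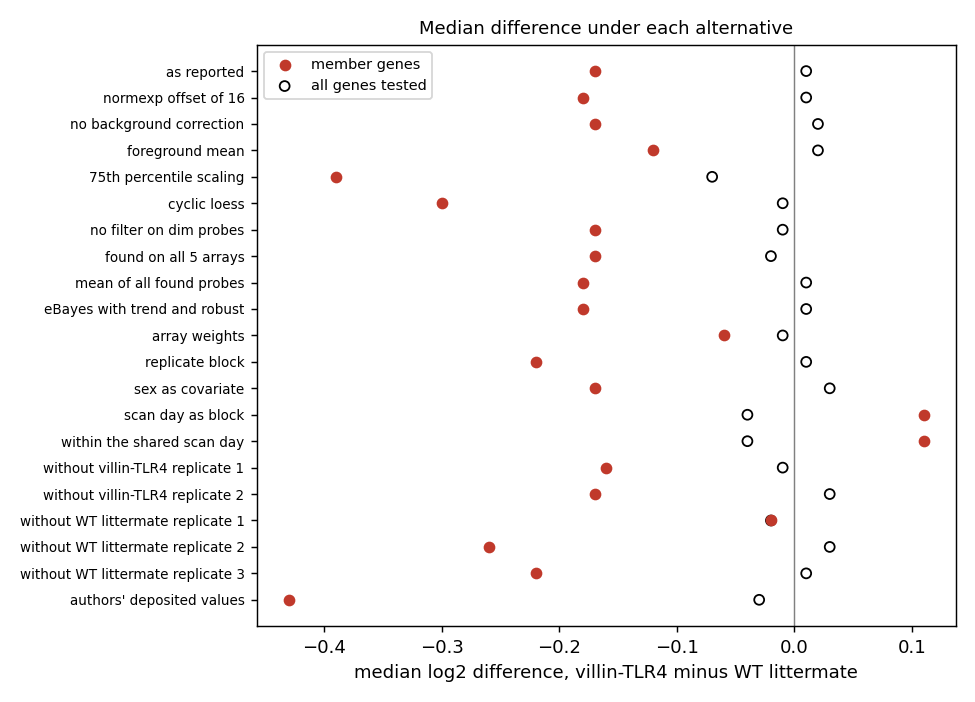
Median log2 difference (x axis, villin-TLR4 minus WT littermate) of the member genes (red) and of all genes tested (open circles) in the reported fit and under each alternative (y axis). The member median is -0.17 as reported, -0.02 without WT littermate replicate 1 and 0.11 within the shared scan day.

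The wider pathway was read from lists of genes around the respiratory chain, and 0 genes of these lists passed an adjusted p of 0.05. Other assembly factors (27 of 42 measured) split 8 above and 19 below 0 with a median of -0.09, which was 0.11 without WT littermate replicate 1. Tmem70 (-0.39 ± 0.22), which assists ATP synthase assembly, Cox15 (0.55 ± 0.36), a heme A synthase, and Foxred1 (0.58 ± 0.43), a complex I factor, had the smallest p-values. These genes stood at -0.36, 0.23 and 0.17 without that array. The tricarboxylic acid cycle enzymes (17 measured) split 12 above and 5 below with a median of 0.21, which turned to -0.15 without that array. Dlat (0.49 ± 0.26) and Pcx (0.51 ± 0.37), which feed pyruvate carbon into the cycle, and Suclg1 (0.74 ± 0.57), of succinyl-CoA ligase, led that list. They fell to 0.34, 0.21 and 0.16 without WT littermate replicate 1.

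Regulators of mitochondrial biogenesis (17 of 18 measured) split 10 above and 7 below with a median of 0.03, or 0.05 without WT littermate replicate 1. Esrrg, an orphan nuclear receptor that activates respiratory genes, read 8.09 and 8.22 in villin-TLR4 and 7.16, 7.20 and 7.47 in WT littermates. The groups did not overlap and each was tight, but Esrrg was dim and was found on only 2 of the 3 WT littermate arrays. The difference was 0.88 ± 0.23 (adjusted p = 0.87), and 0.82 without WT littermate replicate 1. Ppargc1b, a coactivator of the same receptors, differed by 1.65 ± 0.99 but by 0.60 without WT littermate replicate 1, where it read 6.47. It too was found on only 2 of the 3 WT littermate arrays. Tfb1m, a mitochondrial rRNA methyltransferase, differed by 0.32 ± 0.23. Nrf1, Gabpa and Yy1, whose motifs were searched above, differed by 0.03 ± 0.25, -0.28 ± 0.43 and -0.09 ± 0.26.

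Import and chaperone genes (15 of 16 measured) split 7 above and 8 below with a median of -0.05, which became 4 above and 11 below with a median of -0.27 without WT littermate replicate 1. Timm23, the channel of the inner membrane translocase, read 8.29 and 8.17 in villin-TLR4 and 10.27, 9.10 and 9.45 in WT littermates. Each WT littermate lay above both villin-TLR4 samples, and the difference was -1.38 ± 0.38 (adjusted p = 0.87), or -1.05 without WT littermate replicate 1. Tomm20, an outer membrane import receptor, differed by -1.22 ± 0.48, and Hspe1, the co-chaperonin of Hsp60, by -0.72 ± 0.33. These became -0.74 and -0.46 without WT littermate replicate 1. Carriers and porins (8 of 10 measured) split 6 above and 2 below with a median of 0.08, led by the porin Vdac1 (0.37 ± 0.26), the creatine kinase Ckmt1 (0.25 ± 0.32) and the uncoupling protein Ucp2 (0.19 ± 0.39). That list turned without WT littermate replicate 1 to 1 above and 7 below with a median of -0.03, and Ucp2 to -0.17. Genes of pyruvate and lactate use (8 of 10 measured) split 5 above and 3 below with a median of 0.11, or 4 and 4 with a median of 0.04 without that array. The pyruvate carrier genes Mpc1 and Mpc2 differed by -0.84 ± 0.45 and -0.52 ± 0.30, or -0.44 and -0.29 without WT littermate replicate 1. Pdk4, which inhibits pyruvate dehydrogenase, differed by -1.03 ± 0.66, or -1.69 without WT littermate replicate 1. It was found on 1 villin-TLR4 and 2 WT littermate arrays. Pdk4 read 6.88 and 6.86 against 6.59, 8.99 and 8.12, so the groups overlapped.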

How the data were processed

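Per the labels' protocols, colon total RNA was amplified into cRNA with biotin and stained with streptavidin. The deposited files are scanner output of GenePix Pro 4.1.1.4 with the intensity of 38880 spots and their local background at 635 nm, not normalised, and a flag score per spot, per the file headers. A flag of 0 was read as found and -100 as bad, after the scanner software's codes, which the headers do not define. A deposited value table holds a linear ratio per probe. It equalled the scanner's median minus background up to 1 constant per array and a per-probe reference that is unknown, within 0.01 on the log2 scale for 100% of the compared values, except at 296 bad spots of WT littermate replicate 1. Its column medians ran from 0.98 to 1.18, and it served only as an alternative. The genome build used for the probes was not given in the sources used here.

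Foreground medians were background-corrected by normexp with an offset of 50, using limma 3.58.1 (R 4.3.3). Bad spots were set to missing, 3802 control spots were left out, and log2 values were quantile normalised. Probes were named through RefSeq accessions on GRCm38.p6 (23071 of 35078), and a gene was represented by the found probe with the highest mean. The 2 villin-TLR4 and 3 WT littermate arrays were compared two-sided with lmFit and eBayes, and p-values were adjusted by Benjamini-Hochberg over all 15051 genes or unnamed probes and a threshold of 0.05. The fit was tested on simulated data. Where no array of a group detected a gene, its level there was set to its own level or, where higher, to the lowest signal of any probe marked found on the array.

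Members, lists, tests and the naming rule were chosen with earlier results of these data known. The rule named, from each complex, up to 3 members in each direction with the largest difference among those without overlap, a fixed set of subunits, and the 3 smallest p-values of each list; others named were chosen after their values were seen. A member counted in the summaries is not reported here by itself. The lists covered assembly factors, the tricarboxylic acid cycle, biogenesis regulators, carriers, import, pyruvate use and markers of colonocytes, smooth and striated muscle, neutrophils, pancreas, small intestine and adipocytes. The 20 alternatives changed background correction, scaling, filter, probe choice, weights or the blocks, or left out 1 array.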

Additional observations from a re-analysis of the deposited data

How the results depend on the processing

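No member passed an adjusted p of 0.05 under any of the 19 alternatives with a test (scan day within the shared pair gives none). The count over all genes, 0 as reported in limma (730 at an unadjusted p under 0.05), was 4 with scan day as a block and 20 with the replicate block. Whether replicate numbers pair the samples could not be told. Correlations of deviations for the same numbers were -0.152 and -0.213. They cannot decide it, since the deviations of only 2 villin-TLR4 samples mirror each other. The member median with the replicate block was -0.22. The member median was -0.17 as reported, 0.11 with scan day as a block or within the shared day, and -0.43 in the authors' deposited table, where 7 of 77 members lay above 0. It was -0.39 with 75th percentile scaling, -0.30 with cyclic loess, -0.12 with the foreground mean and -0.06 with array weights. It ranged from -0.26 to -0.02 when 1 array was left out, and the value nearest 0 was that without WT littermate replicate 1. By complex, scan day gave 0.14 (I), 0.13 (II), 0.25 (IV) and -0.02 (V). Scaling to the 75th percentile gave -0.28 (III), -0.32 (IV) and -0.44 (V), and cyclic loess -0.16 (III). The authors' deposited table gave -0.32 (III), -0.38 (IV) and -0.48 (V). Complex II ranged from -0.53 to -0.02 with 1 array left out. The cause of these shifts was not tested. Of 794 values of 40 named members under the alternatives, 79 had the opposite sign, spread over 22 members. Kept probes of 5 of 20 genes with several disagreed in sign, Atp5c1, Cox5b, Cox7b and Ndufab1 among them. With 3 residual degrees of freedom the number of arrays limits precision, and hybridisation from pseudogene copies was not tested.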
